A study of Homo sapiens with 3 samples.

Results

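The genes described here encode the subunits of the respiratory chain and of ATP synthase, in the nucleus and on the mitochondrial genome, in chambered cardiac organoids (CCOs) made from the human embryonic stem cell line H7. Members were chosen by symbol: the NDUFA, NDUFB, NDUFC, NDUFS and NDUFV genes of complex I, SDHA to SDHD of complex II, the UQCR genes of complex III, COX4 to COX8 of complex IV, the ATP5 genes of complex V, and the protein-coding genes of the mitochondrial genome, whose symbols begin with MT-. A gene also had to have at least 1 unique molecular identifier (UMI, a counted molecule) in at least 10 cell barcodes. This gave 109 of the 20394 genes that met that minimum, of which 96 were nuclear-encoded and 13 mitochondrial-encoded. Another 5 of the 114 matching rows fell under the minimum. The symbol pattern also took in 7 complex I assembly factors (NDUFAF1 to NDUFAF7), COX7A2L, an assembly factor of respiratory supercomplexes, and 5 genes that are not subunits (ATP5SL, the pseudogenes COX6A1P2 and ATP5EP2, the antisense gene NDUFB2-AS1 and the read-through ATP5J2-PTCD1). It left out CYC1 and CYCS, which are described with the partner genes.

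Complexes I to IV pass electrons from NADH and succinate to oxygen and pump protons across the inner mitochondrial membrane, and ATP synthase, complex V, uses the proton gradient to make ATP. All the complexes except complex II combine subunits from both genomes, so a cell must match a small set of mitochondrial transcripts with many nuclear ones. The heart relies on oxidative phosphorylation more than most tissues, and several subunits of complex IV have heart and skeletal muscle isoforms, such as COX6A2 and COX7A1, that replace the ubiquitous isoform as muscle matures.

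CCOs were sampled as 1 single-cell RNA-seq library each on days 8 (D8), 14 (D14) and 21 (D21). Cells differentiated towards cardiomyocytes (CMs) were aggregated in Matrigel on day 7, kept until D14 in a growth medium with Thrombin, Cardiotrophin-1, EGF, FGF-2, Wnt-3A and EDN1, and then matured in spinner flasks in RPMI with B27. Each day is a single library, so the day cannot be told apart from its library or medium. Differences between days or cell groups were therefore not tested, and each interval is a 95% interval that covers counting error only. The limits that the study set on its cells (over 2000 and under 7500 genes, under 10% of UMIs from MT- genes) kept 2657, 3585 and 1946 barcodes for D8, D14 and D21.

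Cells were clustered without the members, and clusters were named from marker genes. The CM-like cells numbered 506 on D8, 1172 on D14 and 541 on D21, with median depths of 14467.5, 12125.5 and 12773 UMIs. They formed a separate cluster on D8 (cluster 5) and D14 (cluster 0) and a large and a small cluster on D21 (cluster 6 with 489 cells and cluster 17 with 50), so different clusters stood for the class on each day. The 10 CM markers, among them TNNT2, TTN and MYH6, summed to 10423, 28528 and 76043 counts per 1000000 UMIs of the pool (CPM) in them. The classes compared with CM-like cells were fibroblast-like cells (571 on D14, 824 on D21), hepatic endoderm-like cells (306 on D21) and endothelial-like cells (48, 53 and 38). None of the 10 CM markers was at 0 in the other D21 classes, with sums of 3532 CPM in fibroblast-like and 2762 CPM in hepatic endoderm-like cells. The libraries shared 25 (D8 and D14), 59 (D14 and D21) and 52 (D8 and D21) barcode sequences, and removing such cells from the CM-like class moved the nuclear member sums of that class only to 39281.4, 43585.3 and 51720.9 CPM.

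COX6A2, the muscle isoform of a complex IV subunit, had the widest D14 to D8 ratio of all members in CM-like cells, and COX6A1, the ubiquitous isoform, differed little. Their promoters are shown because the levels of this pair differed so unequally. The windows run from 250 bases before to 50 bases after the start of the gene in RefSeq GRCh38.p14, COX6A1 at chr12:120437863-120438162 on the plus strand and COX6A2 at chr16:31428311-31428610 on the minus strand. Capitals mark matches to the core letters of the NRF1 motif (GCATGCGC, here on both strands) in COX6A1, and a match to the muscle E-box letters (CAGCTG) in COX6A2.
COX6A1: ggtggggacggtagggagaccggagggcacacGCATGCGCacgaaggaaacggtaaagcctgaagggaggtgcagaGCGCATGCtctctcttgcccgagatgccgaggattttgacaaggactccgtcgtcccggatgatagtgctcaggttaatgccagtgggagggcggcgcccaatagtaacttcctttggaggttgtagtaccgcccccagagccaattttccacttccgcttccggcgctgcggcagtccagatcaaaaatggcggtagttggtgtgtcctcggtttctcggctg
COX6A2: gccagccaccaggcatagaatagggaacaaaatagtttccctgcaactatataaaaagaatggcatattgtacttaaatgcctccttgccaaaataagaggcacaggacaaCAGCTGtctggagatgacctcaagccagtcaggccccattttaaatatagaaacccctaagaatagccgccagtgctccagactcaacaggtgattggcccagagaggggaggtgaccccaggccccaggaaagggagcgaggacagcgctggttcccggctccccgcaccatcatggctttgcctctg
In COX6A1 the matches began 218 and 174 bases before the start. The single match in COX6A2 began 139 bases before it. The NRF1 core letters were in 15 of the 76 nuclear members with a promoter in the table (19.7%) against 3.27% of all 27305 promoters, counting both strands. The full NRF1 motif, which contains the core, was in 5 members (6.58% against 1.36%). Letters of the GABP site (CCGGAAGT) were in 9 members (11.8% against 4.44%), those of the ERR site (AAGGTCA) in 8 (10.5% against 3.97%), and the YY1 motif was in 4 (5.26% against 0.916%). E-box letters were in 15 members, 19.7% against 17.7% of all promoters, and the MEF2 letters CTAAAAATA were in 0 of the 76. A match of letters describes the window and does not show that a factor binds there.

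The summed nuclear members were highest in CM-like cells on every day, and higher in each later library. Their sum was 39292 CPM (39156 to 39427) on D8, 43555 CPM (43451 to 43660) on D14 and 51758 CPM (51593 to 51923) on D21. The intervals do not overlap. In log2 ratios of these sums, D14 stood 0.15 above D8 (0.14 to 0.15) and D21 stood 0.25 above D14 (0.24 to 0.26). Every other named class was lower. Fibroblast-like cells were at 27931 CPM on D14 and 27635 CPM on D21, and hepatic endoderm-like cells at 24882 CPM (24769 to 24995). Endothelial-like cells were at 19381, 19814 and 27214 CPM, and dividing cells at 25791, 28665 and 30461 CPM. The D21 dividing value depends on the clustering. Of its 173 cells, 137 were in cluster 14, which also had 6 fibroblast markers, and their median nuclear member share was 2.88% of nuclear UMIs for the class. When barcodes of any MT- share were clustered together, the 76 D21 dividing cells under 10% MT- had a median share of 4.92%, against 5.63% in CM-like cells. The unnamed D21 cluster 16, led by MYL2, stood at 40402 CPM, and within the D21 CM-like cells cluster 6 stood at 52851 CPM and cluster 17 at 37507 CPM. Fibroblast-like cells did not share the D14 to D21 difference, with a log2 ratio of -0.02. Their median member stood at -0.04 and the median of all genes at -0.17. The D14 fibroblast-like class held 1578, 571 or 321 cells at clustering resolutions of 0.4, 0.8 (used here) and 1.2. Its ratio was not run at the other resolutions.

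**Figure D1:**
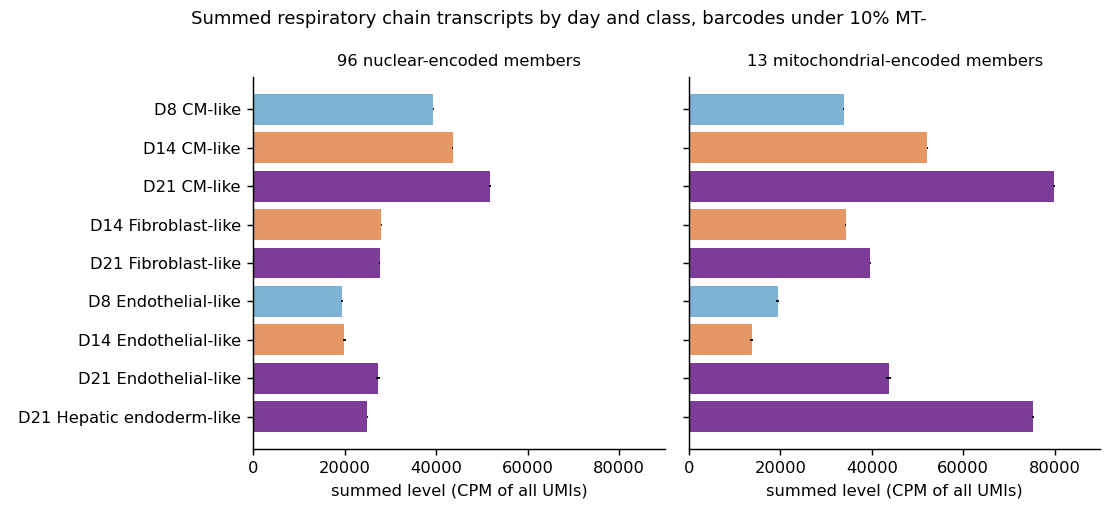
Summed level in CPM of the 96 nuclear (left) and 13 mitochondrial (right) members in the named cell classes of each day, for barcodes under 10% MT-; bars start at 0 and black lines are exact 95% Poisson intervals. The nuclear sum climbs from 39292 to 51758 CPM over the 3 CM-like pools, while the mitochondrial bars of all pools are bounded by the 10% limit on these same genes.

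Under the 10% limit, mitochondrial members differed more between days than nuclear ones. The 13 MT- members summed to 33898, 52130 and 79878 CPM in CM-like cells on D8, D14 and D21, log2 ratios of 0.62 for each step. The 10% limit removes barcodes by these same genes, so these sums are bounded by it, most of all on D21. With a 5% limit the D21 to D14 log2 ratio was 0.0032 for the mitochondrial and -0.015 for the nuclear sum. For each nuclear member UMI there were 0.863, 1.197 and 1.54 mitochondrial UMIs on the 3 days, and 0.876, 1.44 and 2.61 when CM-like barcodes of any MT- share were taken. Hepatic endoderm-like cells had the most mitochondrial UMIs for each nuclear member UMI, 3.03, with an MT- sum of 75323 CPM beside the lowest nuclear sum of the D21 named classes. Fibroblast-like cells had 1.23 on D14 and 1.44 on D21, and endothelial-like cells 1.00, 0.692 and 1.61.

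From D8 to D14, few nuclear members of CM-like cells were past 1.5-fold. Of the 89 nuclear members at 10 CPM or more on either day, 10 were at least 1.5-fold higher on D14 and 0 were as much lower. Over all genes at that level the shares were 20.4% higher and 8.82% lower, so the members' share of higher genes was below the background. The median member stood at a log2 ratio of 0.11 and the median of all genes at 0.06. By complex the sums differed by 0.04 (I), 0.07 (II), 0.09 (III), 0.26 (IV) and 0.16 (V), and the signs for I, II and III turned with median-of-ratios scaling (-0.08, -0.04 and -0.03), that for I also with TMM scaling (-0.02). The members with the highest ratios were COX6A2 (3.22), NDUFA4L2 (1.53), the complex I accessory subunits NDUFA3 (0.87) and NDUFB1 (0.82), and the assembly factor NDUFAF3 (0.82). The lowest were NDUFS5 (-0.46), NDUFS3 (-0.41), NDUFC2 (-0.40), SDHD (-0.38) and ATP5J2 (-0.34).

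From D14 to D21 most nuclear members had ratios above 0 (69 of 89). Of these 89 nuclear members, 20 were at least 1.5-fold higher on D21 and 4 at least 1.5-fold lower, against 11.4% and 27.1% of all genes. The median member stood at 0.34 and the median of all genes at -0.18, and the member median is also 0.34 with COX4I2 put at its bound. TMM and median-of-ratios scaling shifted the median of all genes to 0.05 and 0.10, and then 44 and 48 members were higher and 4 and 3 lower, so that 91.7% and 94.1% of the members past 1.5-fold were higher in place of 83.3%. The shares of all genes moved with them, to 19.3% higher and 19% lower (TMM) and 21.1% and 17.9% (median of ratios), and the median member stood 0.52 above the median of all genes under each scaling. The nuclear sums differed by 0.40 (complex I), 0.38 (II), 0.28 (III), 0.19 (IV) and 0.15 (V), higher on D21 under every scaling. The order was another by median member, with 0.38 for complex I, 0.37 for V, 0.32 for III, 0.28 for II and 0.12 for IV. With the MT- limit at 5% the nuclear sum of the 36 D21 CM-like cells left was no higher than that of the 307 from D14 (log2 ratio -0.015). Over both steps, D21 against D8, 32 of 88 members were at least 1.5-fold higher and 2 lower (all genes, 20.5% and 27.3%).

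**Figure D2:**
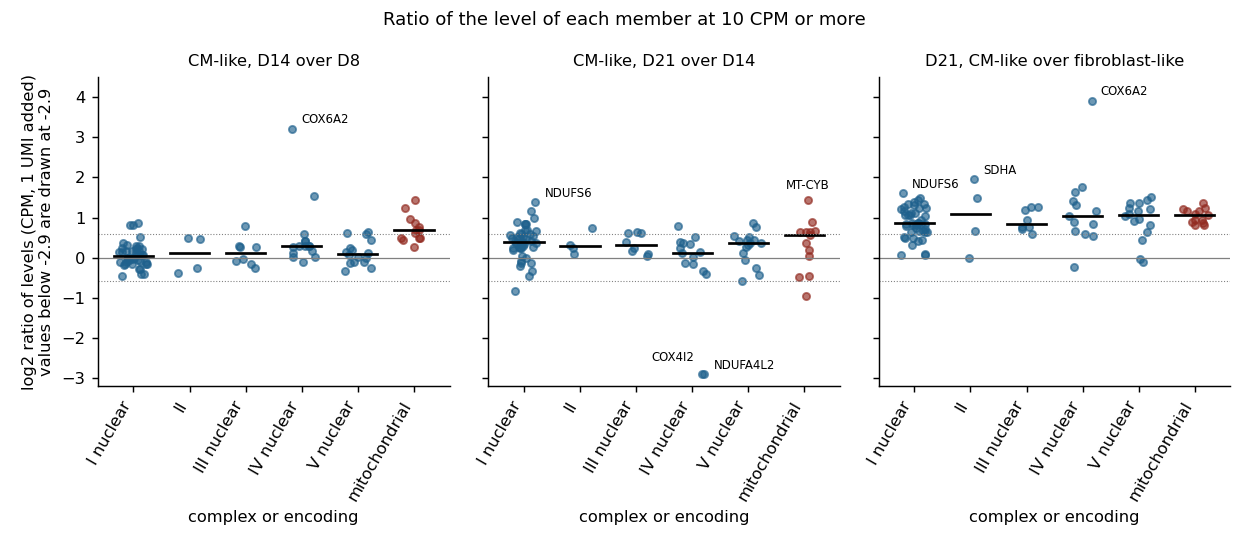
Log2 ratio of the level of each member at 10 CPM or more in either pool (1 UMI added), by complex, for CM-like cells between days and for D21 CM-like against fibroblast-like cells; points are genes, black bars medians, dotted lines 1.5-fold, and NDUFA4L2 and COX4I2 are drawn at the edge of the axis at -2.9. NDUFS6 leads the nuclear members on D21 at 1.38 and MT-CYB the mitochondrial ones at 1.44, and against fibroblast-like cells nearly all points lie above 0.

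In complex I, which takes electrons from NADH, 37 nuclear subunits were measured, 7 of them core subunits that carry flavin or iron-sulphur centres or bind quinone and 30 accessory. On D21 their levels in CM-like cells ran from 30.7 CPM (NDUFA7.1) to 1038 CPM (NDUFS6), with a median of 329 CPM. NDUFS6, an accessory subunit bound near the electron-input arm, stood at 411 CPM on D8, 399 CPM on D14 and 1038 CPM on D21. The first 2 values lie close together and the D21 library stands far above them, a log2 ratio over D14 of 1.38 (1.33 to 1.43). Next in that comparison were the assembly factor NDUFAF6 (1.15, from 15.4 to 34.2 CPM), NDUFB6 (0.99, from 133 to 263 CPM) and NDUFA9 (0.88, from 69.8 to 128 CPM). Core and accessory subunits differed alike between D14 and D21, by 0.43 and 0.40, but from D8 to D14 by -0.08 and 0.06. The 7 assembly factors summed to 328, 437 and 585 CPM, with log2 ratios of 0.41 and 0.42 for the 2 steps, and 3 of them (NDUFAF1, NDUFAF5 and NDUFAF6) were at least 1.5-fold higher on D21 than on D14. Of the 37 subunits, 10 were at least 1.5-fold higher on D21 than on D14 and 1, NDUFA7.1 (54.6 and 30.7 CPM), as much lower. For these counts and that of the assembly factors, the shares of all genes were 11.4% higher and 27.1% lower. The count over all nuclear members in this step depended on the scaling, as given above. NDUFS5 had the most UMIs of the complex over all barcodes and stood at 927, 675 and 879 CPM. The symbol NDUFA7.1 is a repeated symbol of the annotation, so its count may be split with another row.

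Complex II, succinate dehydrogenase, is the complex without mitochondrial-encoded subunits and also an enzyme of the tricarboxylic acid (TCA) cycle. Its 4 genes had low levels in CM-like cells. SDHA, the flavoprotein that oxidises succinate, stood at 98.8, 137 and 171 CPM on D8, D14 and D21, and SDHB, the iron-sulphur subunit, at 73.2, 102 and 171 CPM. Of the membrane anchors, SDHC stood at 139.9, 117 and 139 CPM and SDHD at 98.1, 75.2 and 80.5 CPM. The catalytic pair was thus higher in each later library. The anchors had their lowest values on D14, but for SDHD the D14 and D21 values lay close together. The ratio of D21 to D14 was 0.74 (0.64 to 0.85) for SDHB and 0.32 (0.22 to 0.42) for SDHA on the log2 scale.

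In complex III, which passes electrons from ubiquinol to cytochrome c, 8 nuclear members were measured. UQCRH, the hinge protein, had the most UMIs and stood at 1371, 1144 and 1293 CPM. UQCRQ, a small subunit, stood at 369, 642 and 995 CPM and was at least 1.5-fold higher in both steps. The others past 1.5-fold on D21 over D14 were the core protein UQCRC1 (202 and 311 CPM) and UQCRFS1, the Rieske iron-sulphur protein (351 and 535 CPM). MT-CYB, cytochrome b and the only mitochondrial subunit, is described with the mitochondrial members.

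Complex IV, cytochrome c oxidase, differed most between D8 and D14 among the nuclear complexes, and its tissue and condition isoforms gave the widest ratios of any members. COX7C had the most UMIs, at 1687, 2240 and 2283 CPM, and NDUFA4, now known as a complex IV subunit, reached the highest level of any nuclear member on D21 (2034, 2049 and 2691 CPM). COX5A, a subunit on the matrix side, was at 683, 760 and 1323 CPM. COX4I1, the ubiquitous isoform of the regulatory subunit 4, stood at 1109, 1125 and 1426 CPM, COX7B at 808, 983 and 1413 CPM, COX6B1 at 1017, 1236 and 1136 CPM, and COX8A at 630, 949 and 1038 CPM. None of these was lower on D21 than on D8.

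COX6A2 is among the leading genes of the D14 CM-like cluster, although no member was used to form the clusters. Its level in CM-like cells was 26.5 CPM (23.1 to 30.3) on D8, 248 CPM (240 to 256) on D14 and 291 CPM (278 to 303) on D21, and that of COX6A1 was 560, 677 and 605 CPM. As a share of the UMIs of the pair, COX6A2 made up 4.53% (3.96 to 5.15), 26.8% (26.1 to 27.5) and 32.4% (31.3 to 33.6). The wider step lay between D8 and D14, and the D14 and D21 intervals were apart as well. With barcodes of any MT- share the 3 values were 4.75%, 27.97% and 39.7%. The ubiquitous isoform remained the larger part on every day. In fibroblast-like cells the share was 1.48% on D14 and 4.59% on D21, in hepatic endoderm-like cells 3.001%, and in endothelial-like cells 2.92% on D14 and 6.78% on D21. On D8 0 of 235 UMIs of the pair were COX6A2 in endothelial-like cells, which allows a share of up to 1.28%. After thinning every cell to 4000 UMIs, 9.29%, 45.6% and 51.8% of CM-like cells had a COX6A2 UMI on the 3 days (22.1%, 66.8% and 74.3% unthinned), against 2.45% of D14 and 8.74% of D21 fibroblast-like and 6.21% of hepatic endoderm-like cells (6.13%, 22.8% and 30.4% unthinned, with median depths of 12741, 12690.5 and 21929.5 UMIs). CM markers were also present in those classes. As a percentage of the CM marker level, COX6A2 stood at 0.547% in D14 fibroblast-like and 1.23% in D14 endothelial-like cells, and at 0.544%, 0.686% and 0.578% in D21 fibroblast-like, endothelial-like and hepatic endoderm-like cells. The part of free RNA in the low shares was not tested. Relative to CM markers, COX6A2 in CM-like cells stood at 0.255%, 0.870% and 0.382%.

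COX7A1, the other muscle isoform, had few UMIs in every library. It made up 0.00973%, 0.101% and 0.153% of the COX7A1 and COX7A2 UMIs of CM-like cells on D8, D14 and D21, at 0.12, 1.36 and 1.64 CPM, while COX7A2 stood at 1251, 1352 and 1069 CPM. In the whole table COX7A1 had 5, 30 and 111 UMIs in 4, 13 and 38 barcodes, with up to 15 in a barcode, so its few UMIs were held by few cells. It reached 8.21 CPM in D21 CM-like barcodes of 20 to 30% MT- (20 UMIs) and 15.8 CPM in those over 30% (9 UMIs). The bins below did not climb steadily, with 1.75, 2.85 and 0.691 CPM at 5 to 10, 10 to 15 and 15 to 20% (10, 28 and 4 UMIs). The 11.9 CPM of D21 endothelial-like cells came from 7 UMIs in 1 of 38 cells. The testis isoforms COX6B2 and COX8C were at most 1.79 CPM in any named class. COX7A2L differed in the other direction from most members, at 260, 239 and 182 CPM.

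NDUFA4L2 and COX4I2, which are known as isoforms raised in low oxygen, were present on D8 and D14 and nearly absent on D21. NDUFA4L2 stood at 19.8, 57.4 and 1.37 CPM in CM-like cells, a D21 to D14 log2 ratio of -5.26 (-6.46 to -4.51). It was also lower in the other classes of the D21 library, at 4.47 CPM in fibroblast-like cells against 47.2 CPM on D14, and at 0 of the UMIs of 38 endothelial-like cells against 142 CPM on D14. COX4I2 stood at 7.43 and 10.1 CPM in CM-like cells of D8 and D14, and 0 of 10419 COX4I1 and COX4I2 UMIs on D21 were COX4I2, which allows a share of up to 0.0288%. Set against a floor of 3 counts in the D21 pool, COX4I2 was at least 24.5-fold lower on D21 than on D14 in CM-like cells and at least 43.0-fold lower in fibroblast-like cells. Over the whole table the UMIs numbered 304, 634 and 1 for COX4I2 and 1350, 3203 and 122 for NDUFA4L2. The low levels were thus found in every named class of the D21 library, for which medium and culture vessel also differed from D14.

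**Figure D3:**
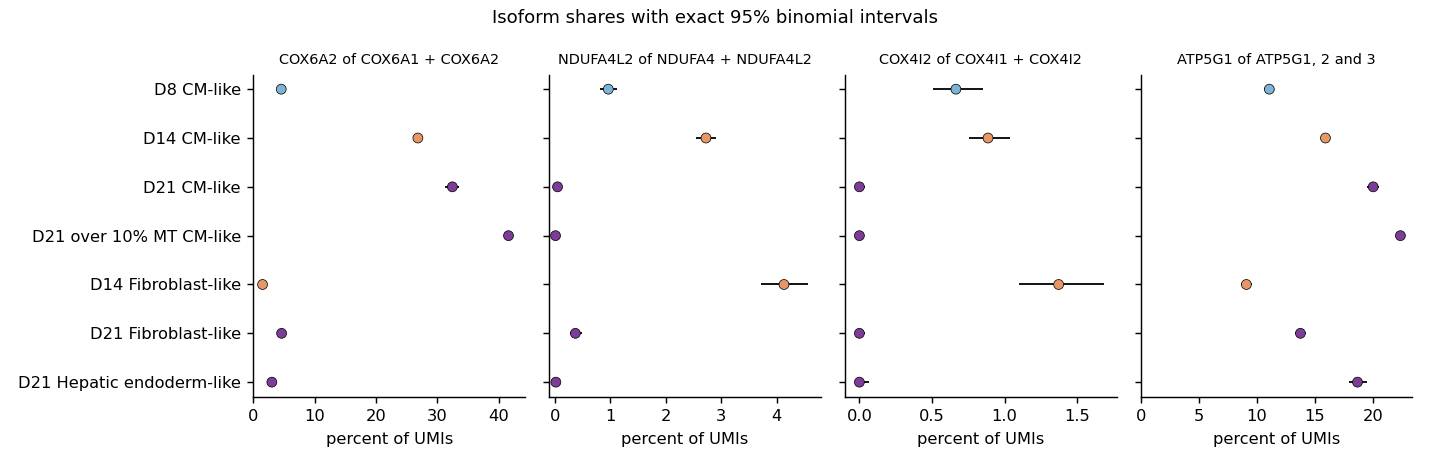
Share of an isoform in the UMIs of its pair or family (percent, exact 95% binomial intervals) in CM-like, fibroblast-like and hepatic endoderm-like pools, including the D21 CM-like barcodes over 10% MT-; colours mark the day and each panel has its own axis from 0. COX6A2 lies at 4.53%, 26.8% and 32.4% over the CM-like pools and at 41.6% over 10% MT-, while NDUFA4L2 and COX4I2 lie at or near 0 in every D21 pool.

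In complex V, 17 nuclear members were measured, 5 of the catalytic F1 head and 12 of the membrane part and the stalks. The F1 subunits summed to 0.35 more on the log2 scale on D14 than on D8 and to 0.06 more on D21 than on D14, and the others to 0.06 and 0.20. The second F1 value was low through ATP5E, since the other 4 F1 genes were above 0, and by median member the 2 groups stood at 0.31 and 0.41 on D21 over D14. ATP5E, the epsilon subunit of F1, stood at 1173, 1841 and 1360 CPM, and ATP5B, the catalytic beta subunit, at 723, 860 and 1065 CPM. ATP5F1, the peripheral stalk subunit b, was 0.87 higher on D21 than on D14 (273 and 500 CPM), and ATP5I was 0.58 lower (1003 and 673 CPM). The proton-carrying c subunit comes from ATP5G1, ATP5G2 and ATP5G3, which differ in the part cleaved off on import. Within that family ATP5G1 made up 11.1%, 15.9% and 20.01% of UMIs in CM-like cells on D8, D14 and D21, ATP5G2 30.9%, 29.97% and 22.1%, and ATP5G3 58.1%, 54.1% and 57.9%. In D21 fibroblast-like cells the shares were 13.7%, 44.4% and 41.8%, so ATP5G2 led there and ATP5G3 in CM-like cells. ATP5L2, a near copy of ATP5L, had 1.95, 2.08 and 2.60 CPM beside 977, 1072 and 1029 CPM of ATP5L.

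Against fibroblast-like cells of the same D21 library, CM-like cells had higher levels of most nuclear members. Of 87 at 10 CPM or more, 71 were at least 1.5-fold higher and 0 as much lower, where 25.8% of all genes were higher and 23.7% lower. The nuclear sum was 0.91 higher on the log2 scale (0.90 to 0.91), and the complexes stood at 0.83 (I, 30 of 37 members past 1.5-fold), 0.93 (II), 0.86 (III, 8 of 8), 1.10 (IV, 11 of 12) and 0.82 (V, 13 of 16). The widest ratios were those of COX6A2 (3.91), SDHA (1.95, 171 against 44.0 CPM), COX5A (1.75), COX7B (1.64) and NDUFS6 (1.60). The lowest were COX7A2L (-0.23), ATP5E (-0.11), ATP5G2 (-0.04), SDHC (-0.00) and NDUFAF7 (0.05). SDHA and SDHC thus lay at opposite ends, although they are subunits of the same complex. On D14 the difference was smaller, 0.64 in the nuclear sum, with 45 of 89 members at least 1.5-fold higher and 0 lower (all genes, 21.8% and 16.7%). Within fibroblast-like cells, D21 against D14, 3 of 89 were higher and 4 lower (9.14% and 21%).

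Hepatic endoderm-like cells had lower levels of most nuclear members than CM-like cells of D21. The nuclear sum was 1.06 higher in CM-like cells, with 73 of 87 members at least 1.5-fold higher and 0 lower, beside 47.9% and 19.2% of all genes. The median member stood at 1.11 and the median of all genes at 0.53, so the typical gene was also higher in CM-like cells. No other scaling was run for this comparison. By complex the ratios of the nuclear sums were 1.02 (I), 0.81 (II), 0.94 (III), 1.08 (IV, 16085 against 7616 CPM) and 1.15 (V, 16 of 16 members past 1.5-fold). The mitochondrial sums, 0.08 apart, cannot be compared in this way, because both classes were limited to under 10% MT- and their median MT- shares, 8.41% and 7.68%, lay close to that limit. Over the limit the MT- share of the pool was 16.1% in CM-like and 12.5% in hepatic endoderm-like barcodes. Against fibroblast-like cells, 96.8% of which were under the limit, the mitochondrial sum of CM-like cells was 1.01 higher even so. In that comparison 13 of 13 MT- members were at least 1.5-fold higher, beside 25.8% of all genes.

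The 13 mitochondrial members did not differ between days in proportion. In CM-like cells, 8 were at least 1.5-fold higher on D14 than on D8 and 0 lower, and 6 were higher and 1 lower on D21 than on D14. Over all genes the shares were 20.4% higher and 8.82% lower from D8 to D14, and 11.4% and 27.1% from D14 to D21. The limit on the MT- share selects on these same genes, so their levels are bounded by it, most of all on D21. MT-CYB stood at 2248, 3064 and 8298 CPM, the widest D21 to D14 ratio of all 13 (1.44, 1.42 to 1.45). MT-ND5 stood at 653, 1551 and 1119 CPM, MT-ND4L at 81.0, 218 and 112 CPM, and MT-ND6 at 204, 244 and 176 CPM. These 3 complex I genes were lower on D21 than on D14, by -0.47, -0.95 and -0.47, while MT-ND1 (1714, 2607 and 4056 CPM), MT-ND2 (2185, 3057 and 5684 CPM) and MT-ND3 (1046, 1683 and 2150 CPM) were higher, and MT-ND4 (4055, 7320 and 8410 CPM) stood 0.20 higher. The oxidase genes MT-CO1 (9062, 12780 and 19875 CPM), MT-CO2 (4695, 7956 and 12298 CPM) and MT-CO3 (5664, 7955 and 11858 CPM) and the ATP synthase gene MT-ATP6 (2285, 3684 and 5830 CPM) had D21 to D14 ratios between 0.58 and 0.66, close to that of the MT- sum. MT-ATP8 was at 5.48, 10.8 and 11.1 CPM. It overlaps MT-ATP6, as MT-ND4L overlaps MT-ND4, and MT-ND6 lies on the other strand, so counts of these small genes are uncertain.

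As a share of MT- UMIs, MT-CYB made up 6.63%, 5.88% and 10.4% in CM-like cells. The same step appeared in the other classes of the D21 library, from 6.47% to 11.4% in fibroblast-like cells and from 6.18% to 10.57% in endothelial-like cells between D14 and D21, and it stood at 9.02% in hepatic endoderm-like cells. MT-ND4L went from 0.417% to 0.141% in CM-like cells and from 0.299% to 0.127% in fibroblast-like cells, and MT-ND6 from 0.468% to 0.221% and from 0.466% to 0.198%. For these 3 genes the CM-like, fibroblast-like and endothelial-like pools of D21 all lay on the same side of those of D14, and the library cannot be told apart from the day. Within D14 the classes also differed, with MT-ND6 at 1.32% in endothelial-like cells. MT-CO1, the most abundant, differed little in share, at 26.7%, 24.5% and 24.9%.

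**Figure D4:**
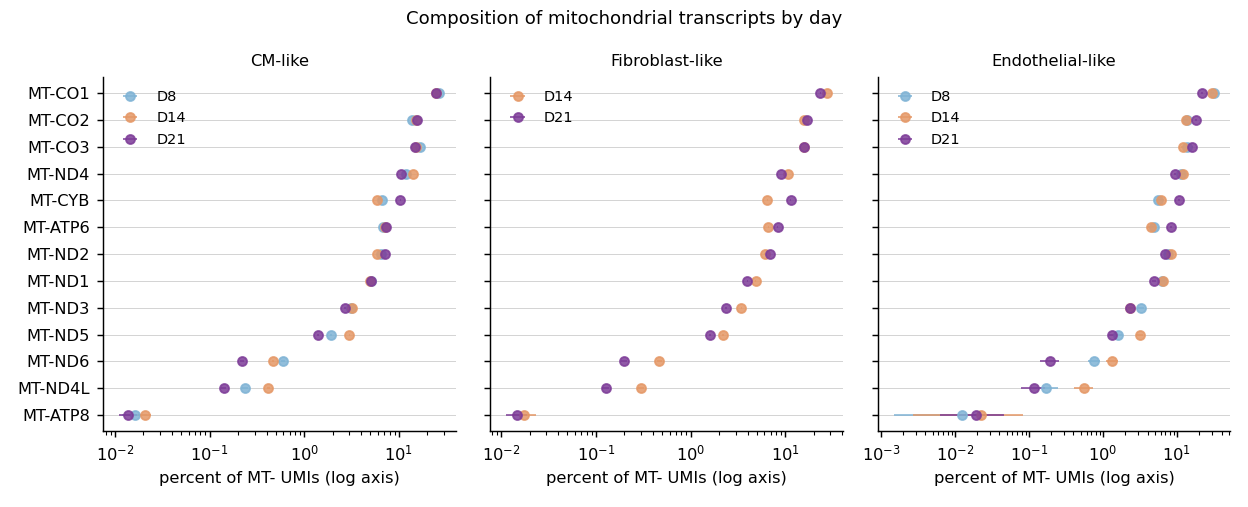
Share of each mitochondrial member in the MT- UMIs of a pool (percent, log axis, exact 95% binomial intervals) for CM-like, fibroblast-like and endothelial-like cells, coloured by day. On D21 MT-CYB lies to the right and MT-ND4L, MT-ND5 and MT-ND6 to the left of D14 in all 3 classes.

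The 10% limit on MT- UMIs bears on these genes directly. When barcodes of any MT- share were clustered together, 484 of 490 CM-like barcodes were under 10% on D8 (98.8%), 1125 of 1305 on D14 (86.2%) and 442 of 1909 on D21 (23.2%, 21.3 to 25.1). Fibroblast-like cells of D21 kept 96.8% and hepatic endoderm-like cells 64.9%. The median MT- share of CM-like barcodes was 2.91%, 5.74% and 13.4%. The CM-like class of D21 was thus mostly outside the limit, and the barcodes beyond it, 1467 in number, had a CM marker sum of 86786 per 1000000 nuclear UMIs beside 85236 in those under it. Because the limit selects on the MT- members, both sides were compared per 1000000 nuclear-encoded UMIs and on nuclear members only.

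Over 10% MT-, D21 CM-like barcodes had 64520 nuclear member UMIs per 1000000 nuclear UMIs, against 58131 under it, a log2 ratio of 0.15 (0.14 to 0.16). It was 0.088 with TMM, 0.068 with median-of-ratios scaling and 0.019 per all UMIs. The median member stood at 0.03, with 48 of 87 above 0, below the median of all genes at 0.06, so the higher sum was not shared by the typical member. Only COX6A2 of 87 members was at least 1.5-fold higher and 0 were lower, beside 3.97% and 0.763% of all genes. The ratio was 0.26 for complex IV, 0.19 for III, 0.11 for V, 0.07 for I and -0.14 for II, and -0.11 for the assembly factors. That for complex I was -0.02 with median-of-ratios scaling, so its sign depends on the scaling. The highest members were COX6A2 (0.74, 549 against 329 per 1000000 nuclear UMIs), ATP5I (0.42), NDUFA3 (0.39), NDUFB1 (0.37) and COX7C (0.34). The lowest were SDHB (-0.27), NDUFS3 (-0.24), SDHC (-0.24), COX7A2L (-0.22) and NDUFA7.1 (-0.21). COX6A2 made up 41.6% of its pair over the limit (40.9 to 42.3) and 32.9% under it (31.6 to 34.1), and 66.9% against 53.6% of barcodes had a COX6A2 UMI after thinning to 4000 UMIs (85.8% and 73.1% unthinned, median depths 12035 and 12918 UMIs). The c subunit shares over the limit were 22.3% for ATP5G1, 19.6% for ATP5G2 and 58.1% for ATP5G3.

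On D14 the same comparison gave 3 of 89 members higher (COX6A2, ATP5G1 and NDUFAF6) and 2 lower (NDUFA4L2 and COX4I2), where 9.09% of all genes were higher and 3.93% lower. NDUFA4L2 made up 0.255% of its pair in the 180 D14 barcodes over the limit and 2.65% in those under it. COX6A2 made up 31.9% and 27.2%. With barcodes of any MT- share, 29 of 88 nuclear members were at least 1.5-fold higher on D21 than on D14 and 3 lower (12.5% and 24.4% of all genes), and 12 of 88 were higher on D14 than on D8 and 0 lower (22.7% and 8.91%). The sign of each complex from D14 to D21 was the same with and without the limit.

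Within a day, CM-like cells with a larger MT- share also had a larger share of nuclear member UMIs. On D8 nuclear members took 3.41%, 3.92%, 4.60% and 5.37% of nuclear UMIs in cells of 0 to 2, 2 to 4, 4 to 6 and 6 to 8% MT- (154, 181, 122 and 39 cells). On D14 they took 3.905%, 4.12%, 4.57%, 4.92% and, for 8 to 10%, 5.41% (151, 300, 286, 256 and 179 cells). On D21 the bins from 4% upwards gave 5.39%, 5.51% and 5.78% (39, 153 and 323 cells). At equal MT- share, D14 lay above D8 in the bins under 4%, within the counting interval of it from 4 to 6% and below it from 6 to 8%, while D21 lay above D14 in each of the 3 bins they share. Spearman correlations between the nuclear member share and the MT- share over cells were 0.528, 0.433 and 0.188 on D8, D14 and D21 (506, 1172 and 541 cells that share a library and its depth), and 0.0923 over 824 D21 fibroblast-like cells. In the CM-like cells the nuclear member share also went with the UMIs of the cell, at 0.171, 0.297 and 0.27. The MT- share went with the UMIs at 0.114, 0.24 and 0.0635. The part of depth in the first correlations was not tested. The COX6A2 share of its pair was 4.60%, 4.89%, 4.67% and 1.57% over the D8 bins, 24.4% to 29.4% over the D14 bins and 28.0% to 35.6% over the D21 bins, so D8 and the later days lay further apart than the bins of a day did. Beyond it, D21 barcodes of 10 to 15, 15 to 20 and 20 to 30% MT- had COX6A2 shares of 38.3%, 42.5% and 49.3%, and median nuclear member shares of 6.04%, 6.34% and 6.06%. In D21 CM-like barcodes MT-CYB stayed between 10.3% and 10.56% of MT- UMIs in every bin.

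**Figure D5:**
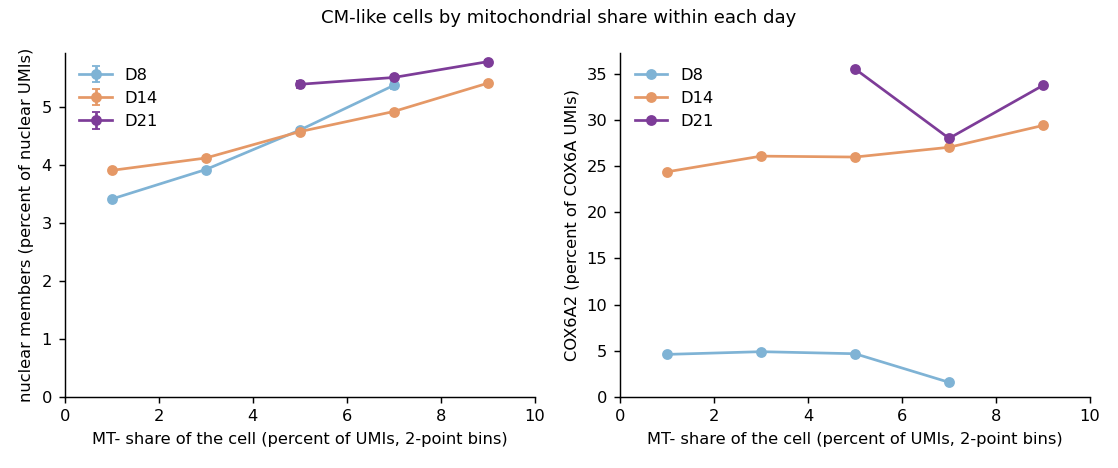
CM-like cells under 10% MT-, binned by MT- share within each day (horizontal axis, bins of 2 percentage points with at least 20 cells). The left panel shows nuclear members as percent of nuclear UMIs with exact 95% Poisson intervals. The right panel shows COX6A2 as percent of COX6A1 and COX6A2 UMIs. The nuclear member share climbs with MT- share on D8 and D14 and lies highest on D21, while the COX6A2 lines are set apart by day.

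Other mitochondrial genes were read from lists. Of 16 TCA cycle genes, 2 were at least 1.5-fold higher on D14 than on D8, 4 on D21 than on D14 (DLD, SUCLG1, IDH3B and FH) and 13 in D21 CM-like than in fibroblast-like cells, with 0 lower in all 3 comparisons and medians of 0.07, 0.32 and 1.24. The shares of all genes higher in these comparisons were 20.4%, 11.4% and 25.8%, so the first count was below the background. Of 12 adenylate transport and creatine kinase genes, 5 were higher on D21 than on D14 and 2 lower (all genes, 11.4% and 27.1%). Those higher included CKMT2, the mitochondrial creatine kinase (7.67, 29.7 and 77.2 CPM over the days), CKM, its muscle cytosolic partner (12.7, 90.4 and 324 CPM), and SLC25A4, the muscle ADP/ATP carrier (362, 718 and 1088 CPM). Those lower were the ubiquitous forms CKB (150.3, 145 and 64.1 CPM) and SLC25A6 (1128, 1216 and 743 CPM). Of 32 partner genes (assembly factors and electron carriers outside the symbol pattern), 5 were higher on D21 than on D14 and 3 lower, shares near or under the 11.4% and 27.1% of all genes, and cytochrome c, CYCS, stood at 414, 549 and 741 CPM. Of 73 mitochondrial ribosome genes, 13 were higher and 2 lower (median 0.29), beside the same 11.4% and 27.1% of all genes. Of 13 regulators of mitochondrial biogenesis, 1 (PPARGC1B) was higher and 3 (PPARGC1A, PPARA and ESRRG) were lower in that step. Both counts are shares under those of all genes. Coactivator PPARGC1A stood at 22.9, 32.8 and 15.6 CPM under the 10% limit, lower on D21 than on D14 while most members were higher. With barcodes of any MT- share, 3 regulators were higher (PPARGC1B, TFB2M and PPRC1) and 1 lower (ESRRG), beside 12.5% and 24.4% of all genes. There PPARGC1A and PPARA were not past 1.5-fold. Within D21, PPARGC1A, POLG and PPARA were at least 1.5-fold higher in CM-like barcodes over 10% MT- than under it, and 0 regulators were lower (all genes, 3.97% and 0.763%).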

How the data were processed

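The authors deposited 1 table of UMI counts per gene and cell barcode for the 3 libraries, made with Cell Ranger on hg19 from 10x 3′ libraries (Seurat 3.2.1 is also named in the submitters' processing notes; no Cell Ranger version is given in the sources used here). It held 17327 barcodes with at least 500 UMIs each and 32738 genes. A 3′ UMI count is 1 count per molecule, so no length correction was made, and the depth was 46767738, 50247286 and 30898727 UMIs for the cells kept on D8, D14 and D21. No sample column was left unused.

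Barcodes with over 2000 and under 7500 genes and under 10% MT- UMIs were kept, after the study's methods. They were normalized to 10000, and clustered in Seurat 5.3.0 (R 4.3.3) on 1994 variable genes (2000 less 6 members), 20 principal components and resolution 0.8. A second clustering took barcodes of any MT- share, and it gave the comparison of barcodes over and under 10%. Clusters were named from fixed markers, and the naming thresholds were set after the data were seen. A class needed at least 3 markers at 2-fold and a lead of 2 over the next class. A lead of 3 markers among the 10 leading genes of the cluster could replace the lead of 2. The hepatic endoderm-like class tied with the markers of an epithelial class at 8 each and was named in that second way. No doublet caller was run and no cell was removed as a doublet. Counts were summed per class and day. Intervals are exact Poisson (levels, and nuclear member shares by MT- bin), Clopper-Pearson (other shares) or exact binomial for the split of UMIs (ratios of UMIs), all at 95%. UMIs from PCR duplicates are collapsed, and the intervals cover counting error only. Log2 ratios have 1 UMI added to each pool, and members were counted past 1.5-fold among those at 10 CPM or more in either pool. A count of 0 allows 3 counts. Cells were thinned to 4000 UMIs for shares of cells, with none left out. Scripts were tested on simulated data. Scaling alternatives used TMM (edgeR 4.0.16) and median of ratios (DESeq2 1.42.0), with factors only and no model. Python 3.11.15, numpy 2.4.6, pandas 2.3.3, scipy 1.17.1, matplotlib 3.10.9 and Matrix 1.6.5 were used.

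The members, gene lists and alternatives were chosen with earlier results of these data known. Named genes were the 13 MT- members, the isoform families, the 4 SDH genes, the 5 nuclear members with the highest and lowest ratio in each of 4 comparisons, and the nuclear member with the most UMIs of each complex. Other members were named after their values were seen. Near copies and repeated symbols (COX6A1P2, ATP5EP2, ATP5L2, NDUFB8.1, UQCR11.1, NDUFA7.1) and overlapping mitochondrial genes are uncertain. Promoter windows are RefSeq GRCh38.p14 and share no coordinates with the hg19 counts. Of 96 nuclear members 76 matched, 14 of them by an older symbol. A result for an item withheld for evaluation is not reported here.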

Additional observations from a re-analysis of the deposited data

Results flagged for a closer look

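ATP5S, the coupling factor B subunit, stood 0.76 higher on the log2 scale on D21 than on D14 in CM-like cells and at -0.38 in fibroblast-like cells of the same libraries, and MT-ND1 stood at 0.64 and -0.085. Both genes drew attention because they lay past 1.5-fold in CM-like cells and on the other side of 0 in fibroblast-like cells. The median of all genes in fibroblast-like cells was -0.17, so MT-ND1 lay above the typical gene in both classes, and ATP5S only in CM-like cells. With 1 library a day the difference between the classes was not tested.

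COX6A2 made up 27.8% (26.2 to 29.4) of its pair in D21 barcodes with at most 2000 genes and over 10% MT-, which no main comparison used. There were 2393 of them, with a median of 1622 UMIs. In the 2828 barcodes of that kind under 10% MT- the share was 26.6% at a median of 952 UMIs, and on D8 the shares over and under 10% were 0.833% and 1.07%. On D14 the order was the opposite of that in CM-like barcodes with more genes, at 13.9% (10.7 to 17.5) over 10% MT- and 23.7% (20.5 to 27.1) under it. All shares of barcodes with at most 2000 genes were taken without regard to cell class. On D14, CM markers made up 4.22% of their nuclear UMIs over 10% MT- and 1.72% under it.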

How the results depend on the processing

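No paired analysis was possible because each day is 1 library. The values come in the order D14 over D8 (nuclear sum, CM-like, log2; reported 0.15), D21 over D14 (nuclear 0.25, then mitochondrial 0.62), D21 CM-like over fibroblast-like (0.91) and over against under 10% MT- (0.15). With nuclear UMIs as denominator they were 0.18, 0.29, 0.66 and 0.97, and the last was 0.019 per all UMIs. TMM gave 0.086, 0.48, 0.85, 0.86 and 0.088, and median of ratios 0.031, 0.53, 0.89, 0.85 and 0.068. With a 5% limit, which left 36 D21 and 307 D14 CM-like cells, the first 4 were 0.28, -0.015 (the opposite direction), 0.0032 and 0.69. Resolution 0.4 gave 0.16, 0.23 and 0.59 for the days and 0.16 over against under, and resolution 1.2 gave 0.25, 0.15, 0.50 and 0.19. The joint clustering gave 0.16, 0.28, 0.61 and 0.95. A gate on CM markers gave 0.040, 0.12, 0.51, 0.83 and 0.21. Equal weight per cell gave 0.14 for D14 over D8, 0.66 for the mitochondrial sum and 0.89 against fibroblast-like cells. Over against under was 0.20 with 20% as the upper group's limit and 0.11 with over 1000 genes. Chosen after seeing the data, barcodes of any MT- share gave 0.21, 0.40 and 1.14, and leaving out cluster 17 gave 0.28 for D21 over D14 and 0.93 against fibroblast-like cells. The 20 members past 1.5-fold on D21 over D14 became 44 (TMM), 48 (median of ratios), 8 (5% limit), 13 (resolution 1.2) and 10 (marker gate). The D21 COX6A2 share of 32.4% became 37.0% (5% limit), 30.8% (gate), 31.2% (background class subtracted) and 39.7% (any MT- share). The signs of these sums were otherwise the same in every alternative run, while the signs of some complexes turned with scaling (given with them), as did the member median for D14 over D8 (-0.0081 with median of ratios) and for over against under 10% MT- (-0.031 with TMM and -0.051 with median of ratios), and the cause of these differences was not tested. Depth limits COX7A1, COX4I2 and NDUFA4L2 on D21, which rest on few UMIs.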
